A study of Mus musculus with 354 samples.

Results

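The 29 Collaborative Cross strains whose animals carry numbers from 181 upwards supplied 227 of the 354 liver arrays of a study of tolvaptan and liver damage. They were chosen by animal number alone, with no measured value used, and the other 127 arrays came from 16 strains with lower numbers. Each array held RNA from 1 male mouse, 115 given vehicle and 112 given tolvaptan, and livers were taken 24 h after treatment. The mice were inbred, 8 to 10 weeks old, acclimated for about 7 days and fasted for about 18 h, and diced tissue of the median lobe was used. The Collaborative Cross is a panel of inbred strains bred from several founder strains, so that each strain is 1 fixed genetic background. A strain had 4 animals per treatment in 54 of 58 cases, 3 animals in 3 cases (AU8052 vehicle, AU8018 and OR3032 tolvaptan) and 2 in 1 case (AU8016 tolvaptan). All groups share the fast, the sex and the age range, and no untreated or female group was used.

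Tolvaptan blocks the vasopressin V2 receptor, which acts in the collecting duct of the kidney to retain water. Hepatocytes carry the V1a receptor instead, and they clear tolvaptan largely through cytochrome P450 3A enzymes. The liver also makes most plasma proteins, which are folded in the endoplasmic reticulum. When unfolded protein accumulates there, chaperone, translocation and degradation genes are induced through the transcription factors ATF6 and XBP1, which is called the unfolded protein response.

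Values are log2 signals from robust multi-array averaging (RMA), and a difference of 1 is a doubling. Array medians of the members lay between 2.83 and 2.99. The tissue label was checked against hepatocyte genes: all 12 were measured, with a mean level per array from 12.0 to 12.6 under vehicle and from 11.9 to 12.7 under tolvaptan. Albumin (Alb) stood at 13.6 in both groups. Over probe sets that separate the strains, 8 of the 227 arrays were unlike the animals that share their strain label, with correlations of at most 0.242, while the lowest among the remaining arrays was 0.650. The 8 arrays carried the labels AU8018, IL16211, AU8046, OR5119 and AU8005, 5 of them vehicle and 3 tolvaptan. Each of the 8 matched another strain of the study, with correlations of at least 0.881. One vehicle array labelled OR5119 matched AU8005 best (0.924), and one labelled AU8005 matched OR5119 best (0.912). The labels were kept, and values without these arrays stand beside the results that rest on them. Members were scanned on 5 of the 6 scan dates, and the first, scan 1, held 1 animal of each strain and treatment.

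Tolvaptan was first set against vehicle on average over the 29 strains, each strain counted equally. Of 13585 genes tested, 244 were called at an adjusted p under 0.05 (1.80% of genes, limma with Benjamini-Hochberg adjustment), 146 higher (1.07%) and 98 lower (0.721%) under tolvaptan. Most changes were small: 219 of the 244 were under 1.25-fold, and 5 genes reached 1.5-fold (0.0368% of genes), namely Derl3, Saa3, Slpi, Wfdc12 and Hamp2. Without the 8 arrays off their strain 252 genes were called, of which 217 were among the 244, and among the genes named here Pdgfc, Glt28d2, Crip2, Sec61b, Ugt2b35, Kynu and Psmb7 lost their calls. Without strain OR5035 the count was 152.

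Derl3, whose product derlin-3 belongs to the machinery that removes misfolded proteins from the endoplasmic reticulum, had the largest change. Under vehicle it ranged from 4.32 to 9.20 with a median of 5.91 over 115 animals, and under tolvaptan from 4.28 to 11.79 with a median of 7.14 over 112 animals. The ranges overlapped widely, and the upper part of the tolvaptan range had no vehicle counterpart. The averaged change was 1.46 ± 0.14 (SE), or 2.75-fold, with an adjusted p of 7.11e-15 (limma), and was positive in 28 of 29 strains. Leaving out the 8 arrays off their strain gave 1.47. The median change over strains was 1.43.

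The response of Derl3 differed greatly between animals of 1 strain. In OR5119 the vehicle animals measured 5.92, 7.04, 5.86 and 5.21, and the tolvaptan animals 11.79, 10.3, 11.11 and 4.94. In OR5119, 3 tolvaptan animals thus stood far above every vehicle animal, and the fourth, from scan 1, stood below them all. The last vehicle value given for OR5119, here and for the genes that follow, comes from the array that matched AU8005. In AU8004 the vehicle animals measured 5.44, 5.63, 5.16 and 5.62, and the tolvaptan animals 10.17, 7.57, 8.47 and 8.83, with no overlap. In OR773 the vehicle animals measured 6.11, 6.07, 5.70 and 6.23, and the tolvaptan animals 6.83, 5.95, 6.17 and 5.10, so that the groups overlapped. All tolvaptan animals lay above all vehicle animals in 7 of 29 strains. Over all genes tested, 1.69% of gene and strain pairs had that pattern. Of the 112 tolvaptan animals, 67 exceeded every vehicle animal of their own strain and 8 lay below all of them. This count of animals was not set against all genes. The SD within a strain was 1.43 under tolvaptan and 0.765 under vehicle for Derl3, a ratio of 1.87, where the median ratio over all genes was 1.02.

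**Figure D1:**
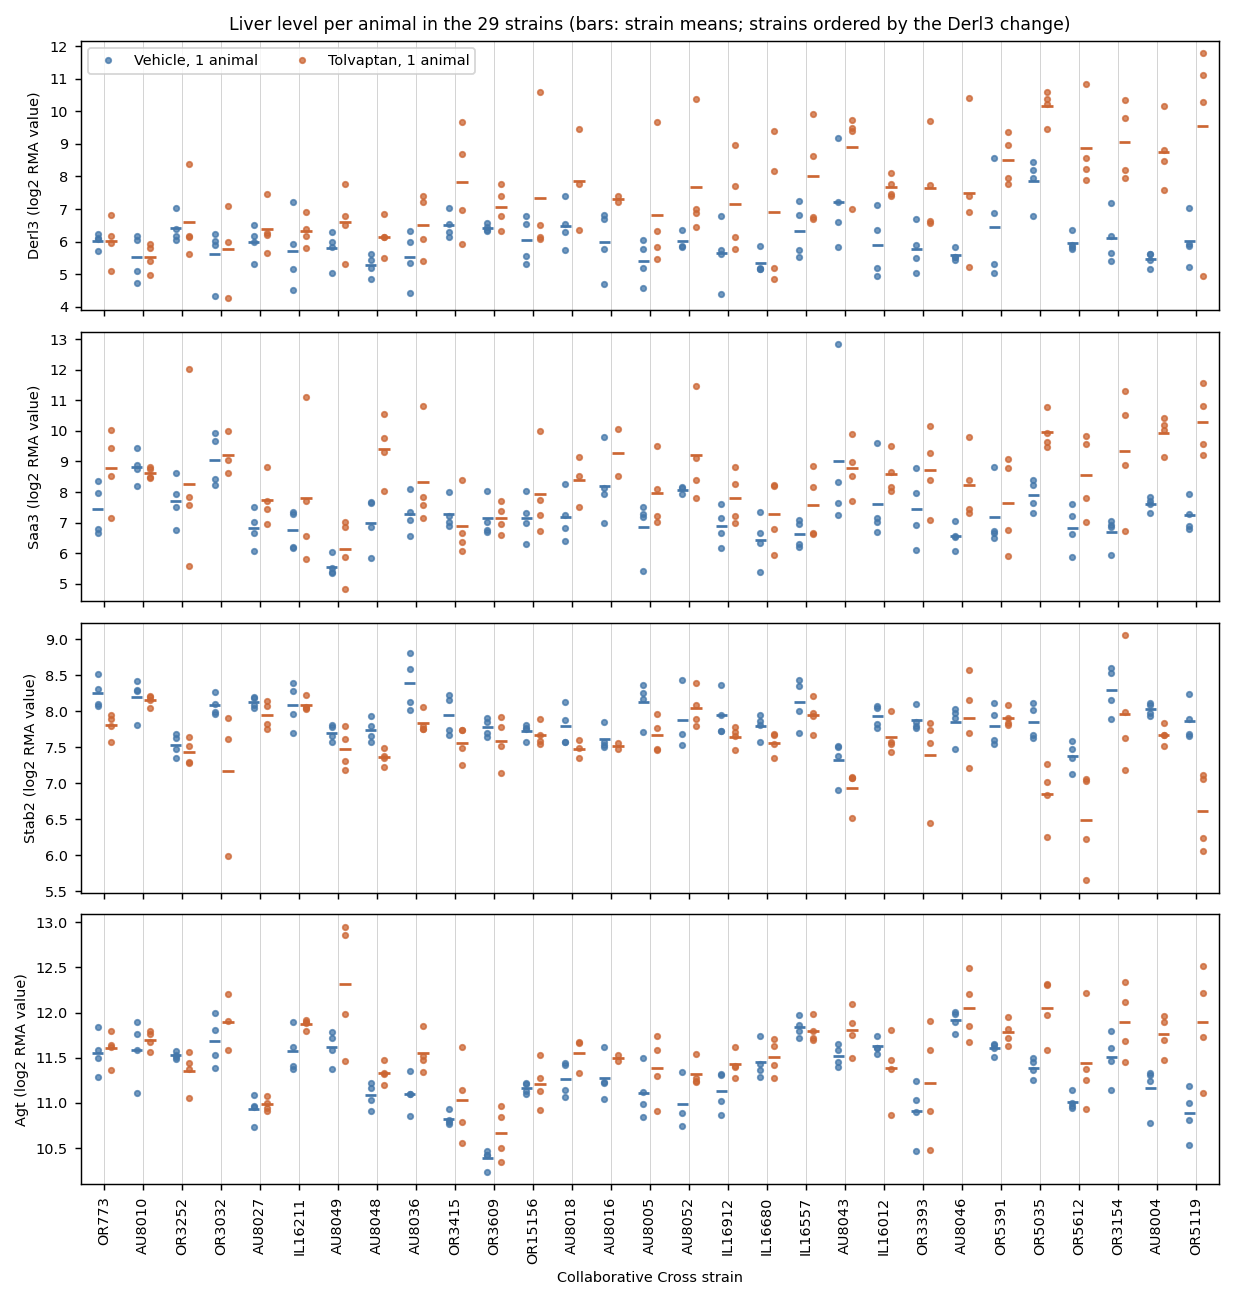
Log2 RMA value of Derl3, Saa3, Stab2 and Agt for every animal (vertical axes), by strain (horizontal axis, ordered by the Derl3 change); blue points are vehicle animals, orange points tolvaptan animals and bars strain means. The tolvaptan animals of OR5119 lie between 4.94 and 11.79 for Derl3 and between 6.06 and 7.11 for Stab2.

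Chaperones and folding enzymes of the endoplasmic reticulum moved in the same direction as Derl3, with smaller changes. Of the 27 tested, 6 rose, none fell, and 24 had a positive change. Their median change was 0.06, against -0.003 over all genes tested, of which 6404 of 13585 were positive. Sdf2l1, a chaperone cofactor, ranged from 4.09 to 9.90 (median 7.36) under vehicle and from 4.18 to 11.57 (median 7.97) under tolvaptan, a change of 0.45 ± 0.11 (SE). The protein disulfide isomerases Pdia4 and Pdia6 rose by 0.31 ± 0.05 each, and the co-chaperone Dnajc3 by 0.22 ± 0.06. Ppib, a prolyl isomerase, and P4hb, the disulfide isomerase PDI itself, rose by 0.15 ± 0.03 and 0.08 ± 0.02. The call of Dnajc3 was lost without OR5119 or without OR5035, with an adjusted p of up to 0.0618.

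Several central chaperones were not called. Hspa5 (BiP), the main chaperone of the compartment, had a change of 0.01 ± 0.06 (SE, adjusted p = 0.986, limma). Hsp90b1 (GRP94) had 0.11 ± 0.06, the lectin chaperone calreticulin (Calr) 0.16 ± 0.05 and Creld2 -0.07 ± 0.08. With strains as the unit of replication, 4 of the 27 were called. In scan 1 alone none was called in this list, nor any gene of the array.

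All 28 tested genes of translocation, glycosylation and vesicle export had a positive change, and 4 rose. Those were the oligosaccharyltransferase subunits Rpn1 (0.27 ± 0.05, SE), Ddost (0.16 ± 0.04) and Dad1 (0.12 ± 0.03), and the signal peptidase subunit Sec11c (0.21 ± 0.05). Rpn1 was higher in 26 of 29 strains. Among 17 tested degradation genes, Derl3 and Sec61b (0.20 ± 0.06) rose and none fell. The close relatives of Derl3 had changes of 0.06 ± 0.03 for Derl1 and 0.02 ± 0.03 for Derl2, neither called. All 28 proteasome subunits tested were positive, with 2 called: Psmd13 (0.11 ± 0.03) and Psmb7 (0.11 ± 0.03). Sec61b lost its call in 12 and Psmb7 in 17 of the 29 omissions of 1 strain, with changes of 0.17 to 0.22 and 0.10 to 0.11.

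Promoter sequences are shown because 3 of the called endoplasmic reticulum genes hold the endoplasmic reticulum stress element, a site known to bind ATF6 together with NF-Y. The sequences are RefSeq promoters of assembly GRCm38.p6, from 250 bases before the start of the gene to 50 after it, printed 5′ to 3′ on the strand of the gene. The motif shown was CCAAT, then any 9 bases, then CCACG, searched on both strands, and capitals mark the match. Other motifs were searched as well, and their counts are given below. The windows lie at chr10:75893148-75893447 (Derl3), chr12:17266339-17266638 (Pdia6) and chr14:118937682-118937981 (Dnajc3), all on the plus strand. The match starts 156 bases before the start of Derl3, in reverse orientation, 98 bases before that of Pdia6 and 105 bases before that of Dnajc3.
Derl3: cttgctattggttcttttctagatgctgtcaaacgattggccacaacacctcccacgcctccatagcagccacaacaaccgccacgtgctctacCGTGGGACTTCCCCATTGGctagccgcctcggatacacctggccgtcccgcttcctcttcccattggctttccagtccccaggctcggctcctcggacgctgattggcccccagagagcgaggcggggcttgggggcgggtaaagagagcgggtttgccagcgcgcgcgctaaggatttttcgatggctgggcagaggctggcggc
Pdia6: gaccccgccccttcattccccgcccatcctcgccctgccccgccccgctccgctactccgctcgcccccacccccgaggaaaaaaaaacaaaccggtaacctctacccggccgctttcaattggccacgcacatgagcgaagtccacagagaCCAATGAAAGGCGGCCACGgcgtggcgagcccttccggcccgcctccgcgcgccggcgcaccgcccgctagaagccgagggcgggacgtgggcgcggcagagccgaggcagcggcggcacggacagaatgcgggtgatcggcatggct
Dnajc3: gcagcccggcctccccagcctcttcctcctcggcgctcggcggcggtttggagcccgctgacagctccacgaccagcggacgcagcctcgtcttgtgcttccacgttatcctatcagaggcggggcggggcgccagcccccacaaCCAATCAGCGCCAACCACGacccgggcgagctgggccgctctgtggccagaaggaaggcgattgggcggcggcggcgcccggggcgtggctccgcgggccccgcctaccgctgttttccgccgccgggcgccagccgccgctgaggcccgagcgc

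The motif was found in 37 of 27025 promoters (0.137%) and in 17 of the 10877 tested genes with a promoter sequence (0.156%). It was found in 10 of the 61 tested genes with a promoter sequence from the chaperone, degradation and translocation lists (16.4%), and in 3 of the 11 called ones (27.3%). The other holders were Calr, Canx, Creld2, Ero1b, Hsp90b1, Hspa5 and Syvn1, none of which was called. Sdf2l1 and Pdia4 had no match in this window. A second form of the stress element (ERSE-II) was found in 2 of the 61 genes (3.28%) and in none of the 11 called ones. The unfolded protein response element (UPRE) was found in 3 of the 61 (4.92%) and likewise in none of the 11. Among the 10877 tested genes with a promoter sequence, ERSE-II was found in 8 (0.0735%) and UPRE in 103 (0.947%). A match describes letters in the window and is not a measured binding site.

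Genes of other stress programmes were measured beside these, and the NRF2 targets are given further below. Over all genes tested, 1.80% were called. Of 24 tested genes of the integrated stress response, which acts through ATF4, only Psat1 was called. Psat1, an enzyme of serine synthesis, rose by 0.52 ± 0.10 (SE), and its medians of 2.24 under vehicle and 2.52 under tolvaptan lay below the typical array median of 2.89. Cct3, a subunit of the cytosolic chaperonin, rose by 0.14 ± 0.04 as 1 of 19 heat shock and cytosolic chaperone genes. Kars, the lysyl-tRNA synthetase, rose by 0.08 ± 0.02 as 1 of 17 synthetases. None of 15 p53 target genes, 17 immediate early genes or 14 cytosolic ribosomal protein genes was called. List medians were not all smaller than those of the endoplasmic reticulum lists. The immediate early list had a median change of 0.106, with 14 of 17 positive and an SD over strains of 0.257. The heat shock and cytosolic chaperone list had 0.0535, with 16 of 19 positive and an SD over strains of 0.117. The chaperone, degradation and translocation lists had 0.0558, 0.037 and 0.0609. Their SDs over strains were 0.128, 0.1 and 0.104, each larger than its median. Gadd45b, an immediate early gene, had a change of 0.38 ± 0.16 with an adjusted p of 0.239 (limma).

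Saa3, a serum amyloid A of the acute phase response, had the next largest rise. It ranged from 5.33 to 12.84 (median 7.18) under vehicle and from 4.82 to 12.02 (median 8.40) under tolvaptan. The groups overlapped over most of their range. The averaged change was 1.10 ± 0.14 (SE), or 2.14-fold, with an adjusted p of 6.37e-09 (limma), positive in 26 strains. Leaving out the 8 arrays off their strain gave 1.09. In OR5119 the vehicle animals measured 7.95, 6.79, 6.89 and 7.29, and the tolvaptan animals 11.57, 10.81, 9.56 and 9.20, with no overlap.

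The acute phase genes as a list did not follow Saa3. Of 28 tested, only Saa3 and haptoglobin (Hp, 0.10 ± 0.02, SE) were called, and the median change of the list was 0.03. Hp was near the top of the measured range, with medians of 13.18 and 13.29, and was positive in 27 strains. Saa1 and Saa2, which resemble each other closely in sequence and may share signal, had changes of 0.33 ± 0.13 and 0.50 ± 0.21, and Lcn2 had 0.55 ± 0.24. None of these 3 was called, and Lcn2 had a change of -0.37 in scan 1 alone. The secreted protease inhibitors Slpi and Wfdc12, both with whey acidic protein domains, rose. Slpi, an inhibitor of leukocyte proteases, ranged from 3.40 to 6.44 (median 4.50) under vehicle and from 3.23 to 9.62 (median 5.05) under tolvaptan, a change of 0.68 ± 0.11 or 1.60-fold. Wfdc12 rose by 0.59 ± 0.11. Serpinf1, the anti-angiogenic factor PEDF, fell by 0.07 ± 0.02 (SE), and the call was lost in 11 of 29 omissions of 1 strain.

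Markers of inflammatory cells were measured beside these genes. None of 10 neutrophil markers, 16 Kupffer cell and macrophage markers, 12 T and NK cell markers or 9 B and plasma cell markers was called. The mean level of the neutrophil list ranged from 2.95 to 6.54 under vehicle and from 3.02 to 7.67 under tolvaptan, with S100a8 at 3.46 and 3.58. The macrophage list ranged from 5.48 to 7.26 under vehicle and from 5.30 to 7.65 under tolvaptan. Of 22 inflammatory genes tested only the cytokine Il18 was called, lower by 0.17 ± 0.05 (SE). No gene of 21 interferon-responsive or 9 MHC class II genes was called for the averaged effect.

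**Figure D2:**
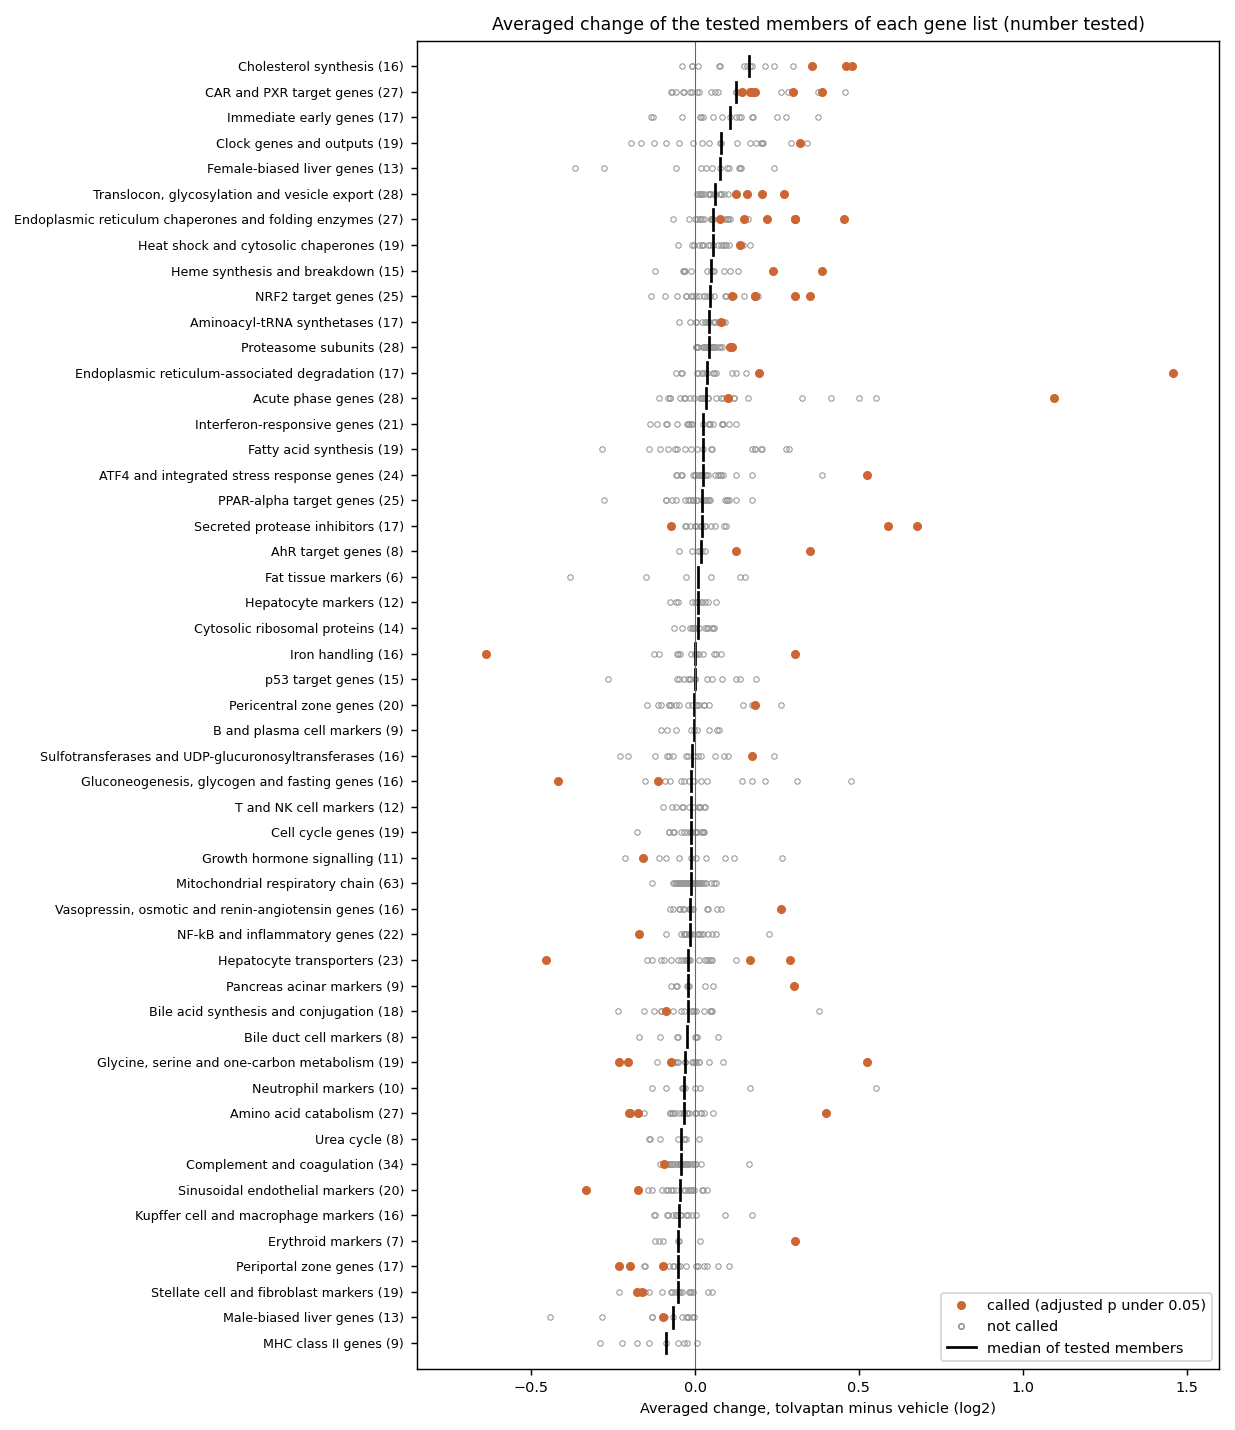
Averaged change (log2, tolvaptan minus vehicle, horizontal axis) of every tested member of each gene list (vertical axis, ordered by median, with the number tested); filled points passed an adjusted p under 0.05, open points did not, and black bars are list medians. Derl3 at 1.46 and Saa3 at 1.10 lie far to the right of all other members.

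Some genes of foreign compound metabolism rose by small amounts. Of 27 tested targets of the nuclear receptors CAR and PXR, 6 rose and none fell, with a median change of 0.13. With strains as the unit of replication 6 rose as well. The count was 4 without a scan term, 3 with all 354 arrays in the fit and 3 in the later scans alone. The list median was 0.0354 in scan 1 and 0.117 in the later scans. Alas1, which catalyses the first step of heme synthesis, ranged from 8.69 to 12.23 (median 10.79) under vehicle and from 9.08 to 12.31 (median 11.21) under tolvaptan. Its change was 0.39 ± 0.08 (SE), or 1.31-fold. The cytochrome P450 Cyp2c29 rose by 0.30 ± 0.07, the glutathione transferase Gstm1 by 0.18 ± 0.05, the glucuronosyltransferase Ugt2b35 by 0.17 ± 0.05, the canalicular pump Abcc2 by 0.17 ± 0.04 and the carboxylesterase Ces2a by 0.14 ± 0.04. The classical targets were not called: Cyp2b10 had 0.46 ± 0.18 (adjusted p = 0.19, limma) and Cyp3a11 0.12 ± 0.06 (adjusted p = 0.343). Ugt2b35 lost its call in 20 and Gstm1 in 8 of 29 omissions of 1 strain, and Abcc2 without OR773 (adjusted p = 0.129). Without the 8 arrays off their strain, the call of Ugt2b35 was lost and the glutathione transferase Gstm3, also a pericentral gene, was called (0.27, adjusted p = 0.0232, limma). Many of these genes belong to families with closely similar members, whose probe sets may share signal.

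Of 25 tested NRF2 targets 5 rose and none fell. The core of the antioxidant response element (TGACNNNGC) was searched in the same promoter windows. It was found in 3781 of 27025 promoters (14.0%), in 7 of the 20 tested targets with a promoter sequence and in none of the 5 called. Sequence outside these windows was not searched, so the called targets may hold the element elsewhere. Nqo1, a quinone reductase, ranged from 2.93 to 7.41 (median 5.12) under vehicle and from 3.49 to 7.43 (median 5.37) under tolvaptan, a change of 0.35 ± 0.07 (SE). Gstm4 rose by 0.31 ± 0.06, the epoxide hydrolase Ephx1 by 0.18 ± 0.04 and thioredoxin (Txn1) by 0.11 ± 0.03, beside Gstm1. Nqo1 is also a target of the aryl hydrocarbon receptor, of whose 8 tested list members it and Arnt, the partner of that receptor, rose (Arnt 0.13 ± 0.03). In heme metabolism Alas1 and the biliverdin reductase Blvrb (0.24 ± 0.05) rose, 2 of 15 genes tested.

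Iron genes changed in both directions. Hamp2, a close copy of the hepcidin gene, ranged from 3.83 to 13.56 (median 9.67) under vehicle and from 5.76 to 13.24 (median 8.76) under tolvaptan. It fell by 0.64 ± 0.16 (SE), and the change was negative in 23 of 29 strains, or in 25 without the 8 arrays off their strain. In IL16012 the vehicle animals measured 11.44, 11.41, 10.25 and 10.17, and the tolvaptan animals 7.79, 7.25, 7.15 and 10.5. Of its tolvaptan animals 3 lay below the lowest vehicle animal, and the fourth, from scan 1, lay within the vehicle range. Hepcidin itself (Hamp) had a change of -0.11 ± 0.12 and was not called. Whether the probes separate the pair fully was not tested. The transferrin receptor Tfrc rose by 0.31 ± 0.08 (SE), a call lost without OR5119 (adjusted p = 0.0568, limma). These were the called genes among 16 tested.

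Cholesterol synthesis had the highest list median, 0.16 over 16 genes, with 3 rises and no fall. Squalene epoxidase (Sqle) rose by 0.48 ± 0.14 (SE), the sterol oxidase Msmo1 by 0.46 ± 0.12 and Insig1, which holds back activation of the sterol-sensing factor SREBP2, by 0.36 ± 0.09. This list also varied most between strains, with an SD of its median change over strains of 0.472. Sqle changed by 2.99 in AU8052 and by -1.05 in AU8043. In AU8052 its vehicle animals measured 4.99, 3.92 and 4.30, and its tolvaptan animals 9.35, 7.48, 7.65 and 5.44, with no overlap. In AU8043 the vehicle animals measured 5.52, 7.83, 9.40 and 4.83, and the tolvaptan animals 5.67, 6.67, 5.09 and 5.95, inside the vehicle range. With strains as the unit of replication, none of the 3 was called, with adjusted p of 0.141 for Sqle, 0.164 for Msmo1 and 0.108 for Insig1 (limma). Sqle lost its call in 16 of 29 omissions of 1 strain and Msmo1 in 4 of them. Of 19 genes of fatty acid synthesis and 25 PPAR-alpha targets none was called. With the 8 off-strain arrays left out, 2 of the 19 were called higher: Fasn, the fatty acid synthase (0.20 with all arrays and 0.21 without them, adjusted p = 0.0501 and 0.0364, limma), and the elongase Elovl6 (0.28 and 0.31, adjusted p = 0.135 and 0.0367).

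Of 27 tested genes of amino acid breakdown, 3 fell and 1 rose. The median change of the list was -0.0351, and 6 had a positive change. Uroc1, which breaks down histidine, fell by 0.20 ± 0.03 (SE) and was lower in 27 strains. Kynureninase (Kynu) fell by 0.20 ± 0.06 and the hydroxyproline dehydrogenase Prodh2 by 0.17 ± 0.03. Csad, which makes the taurine precursor hypotaurine, rose by 0.40 ± 0.09. Among 19 genes of glycine, serine and one-carbon metabolism, the glycine decarboxylase Gldc fell by 0.23 ± 0.05, sarcosine dehydrogenase (Sardh) by 0.21 ± 0.04 and glycine N-methyltransferase (Gnmt) by 0.07 ± 0.02, while Psat1 rose. Of the 8 urea cycle genes none was called and 1 was positive.

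Of 17 genes of the periportal zone, the part of the lobule next to the portal vein, 3 fell and none rose. Gldc and Uroc1 were 2 of them and Cyp2f2 (-0.10 ± 0.03, SE) the other. Of 20 pericentral genes Gstm1 alone was called. Of 16 genes of gluconeogenesis, glycogen and fasting, 2 fell. The glycogen-targeting phosphatase subunit Ppp1r3c fell by 0.42 ± 0.11 and pyruvate carboxylase (Pcx) by 0.11 ± 0.03. Ppp1r3c lost its call without AU8049 or OR5119 (adjusted p of up to 0.052), and Pcx without OR3393, OR5035 or OR5119 (up to 0.0864). None of 63 respiratory chain genes was called, and 19 of them were positive. Without the 8 arrays off their strain, Cycs, which encodes cytochrome c, was called lower among them (-0.14, adjusted p = 0.0427, limma).

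Other falls among the 15 largest were in the organic anion transporter Slc22a7 (-0.45 ± 0.11, SE), N4bp2l1 (-0.36 ± 0.08, lower in 27 strains), the growth factor Pdgfc (-0.26 ± 0.07), the retinol dehydrogenase Rdh16 (-0.24 ± 0.04), Crip2, Fhit, Mreg, Glt28d2, Adam11, 2310001K24Rik and the peroxidasin gene Pxdn (-0.21 ± 0.05). For Rdh16 all tolvaptan animals lay below all vehicle animals in 6 strains, against 1.65% of gene and strain pairs over all genes. Other rises among the 15 largest were in the transcription factor Maff (0.44 ± 0.11), Gnat2 (0.42 ± 0.07, higher in 27 strains), which is a cone transducin subunit, the copine Cpne8 (0.42 ± 0.10), 9130409I23Rik and Fam47e. Calls that were lost in 5 or more of 29 omissions of 1 strain were those of Glt28d2 (22), Mreg (16), Il18 (14), 9130409I23Rik (11), Fam47e (11), Fhit (10), Crip2 (7), Wee1 (7), Cct3 (6), Kynu (6) and Pdgfc (5), besides those given with their lists. Calls lost in 1 or 2 omissions were those of Cpne8 and Psmd13 (without OR5119, adjusted p = 0.052 and 0.0555, limma), Slc17a1 (without OR5035, 0.11), Cyp2f2 (without OR3032 or OR5119, up to 0.0592) and Kars (without AU8004 or OR3415, up to 0.0683).

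**Figure D3:**
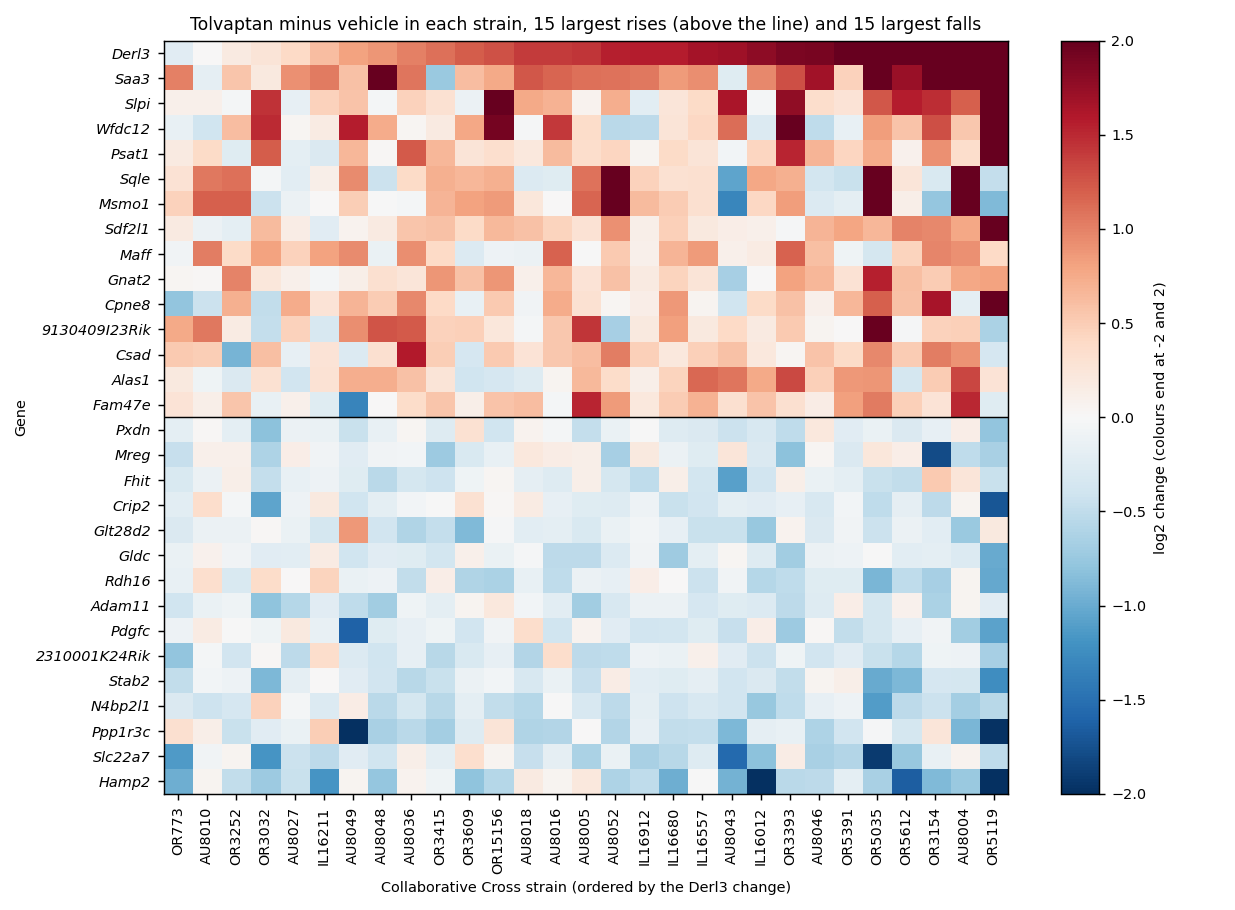
Log2 change, tolvaptan minus vehicle, of the 15 largest rises (above the line) and 15 largest falls (rows) in each of the 29 strains (columns, ordered by the Derl3 change); red is higher and blue lower under tolvaptan, and colours end at -2 and 2. OR5119, at the right edge, holds the extreme value for Derl3 (3.39), Saa3 (3.15) and Stab2 (-1.24).

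Of 23 hepatocyte transporters the phosphate and urate carrier Slc17a1 (0.29 ± 0.07, SE) and Abcc2 rose and Slc22a7 fell. The bile salt pump Abcb11 (-0.05 ± 0.06), the bile salt uptake carrier Slc10a1 (0.04 ± 0.04) and the drug pump Abcb1a (0.05 ± 0.04) were not called. Of 18 genes of bile acid synthesis and conjugation Slc27a5, the bile acid-CoA ligase, fell by 0.09 ± 0.02 and was lower in 25 strains. Single members were called in further lists: the coagulation factor F10 (-0.09 ± 0.02) among 34 complement and coagulation genes, of which 3 were positive (C8g also passed once the 8 off-strain arrays were left out, at -0.07, adjusted p = 0.0487), the cell cycle kinase Wee1 (0.32 ± 0.09) among 19 clock genes, and the growth hormone receptor Ghr (-0.16 ± 0.03) among 11 genes of its pathway. Of 13 male-biased liver genes 1 fell and none was positive, and of 13 female-biased ones none was called.

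The vasopressin and renin-angiotensin genes gave 1 call among 16 tested. Agt, which encodes angiotensinogen, ranged from 10.24 to 12.01 (median 11.33) under vehicle and from 10.34 to 12.95 (median 11.58) under tolvaptan. It rose by 0.26 ± 0.04 (SE), with an adjusted p of 2.60e-08 (limma), and was higher in 26 strains. In OR5119 the vehicle animals measured 10.81, 11.0, 10.53 and 11.19, and the tolvaptan animals 11.73, 11.11, 12.51 and 12.22, so that 3 of the tolvaptan animals lay above all vehicle animals. The V1a receptor Avpr1a had a change of -0.02 ± 0.08. Avpr2, the receptor that tolvaptan blocks, was above the array median on 1 array and was not tested, with means of 2.25 under vehicle and 2.24 under tolvaptan.

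Stab2, a hyaluronan scavenger receptor of the liver sinusoidal endothelium, was the most clearly lowered gene. It ranged from 6.90 to 8.81 (median 7.88) under vehicle and from 5.65 to 9.05 (median 7.66) under tolvaptan, a change of -0.33 ± 0.04 (SE, adjusted p = 6.81e-10, limma), negative in 25 strains. In OR5119 the vehicle animals measured 8.24, 7.66, 7.89 and 7.69, and the tolvaptan animals 7.06, 7.11, 6.06 and 6.24, with no overlap. In OR5612 the vehicle animals measured 7.48, 7.59, 7.13 and 7.35, and the tolvaptan animals 7.03, 6.22, 5.65 and 7.05, again with no overlap. All tolvaptan animals lay below all vehicle animals in 7 strains, a pattern of 1.65% of gene and strain pairs over all genes tested. Of the 112 tolvaptan animals, 62 lay below every vehicle animal of their strain and 5 above all of them. This count of animals was not set against all genes.

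Of 20 tested sinusoidal endothelial markers, Stab2 and the nuclease Dnase1l3 (-0.18 ± 0.04, SE) fell, none rose and 3 were positive. Dnase1l3 was not called with strains as the unit of replication (adjusted p = 0.0869, limma) or in the later scans alone (0.108). The mean level of this list ranged from 5.99 to 6.89 under vehicle and from 5.09 to 6.80 under tolvaptan. Stab1 had a change of -0.10 ± 0.05, Lyve1 of 0.04 ± 0.07 and Pecam1 of -0.02 ± 0.05, none called. Of 19 stellate cell and fibroblast markers Reln (-0.18 ± 0.05) and Bgn (-0.16 ± 0.03) fell and 2 were positive. Of the 16 Kupffer cell and macrophage markers, none of them called, 3 were positive. The median change was -0.0462 for the endothelial, -0.052 for the stellate and -0.0494 for the macrophage list. In whole liver, fewer cells of a type and less RNA per cell cannot be told apart. The part of cell numbers in the change of Stab2 was not tested. None of the 12 hepatocyte markers was called. Cela2a, a pancreatic elastase with means of 3.02 and 3.35 near the array median, rose by 0.30 ± 0.07 as the only call among 9 acinar markers.

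The animals of scan 1 allowed the averaged effect to be measured in separate mice. In the later scans alone 175 genes were called (1.29% of genes). Of these, 159 (90.9%) had the same sign in scan 1, against 56.8% of all genes. Their median change was 0.191 in the later scans and 0.095 in the same direction in scan 1. No gene was called in scan 1 alone, where 551 had an unadjusted p under 0.05, nor for the difference between scan 1 and the later scans, where 355 had an unadjusted p under 0.05. Derl3 changed by 0.98 ± 0.20 (SE) in scan 1 and by 1.62 ± 0.17 in the later scans, Saa3 by 0.91 ± 0.23 and 1.17 ± 0.17, and Stab2 by -0.39 in scan 1 and by -0.30 later. In scan 1 the wells of the array plate were not evenly shared: 21 of 29 vehicle arrays and 7 of 29 tolvaptan arrays lay in even columns. With the plate column as a term 188 genes were called, 94 in each direction, and Derl3 changed by 1.48.

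**Figure D4:**
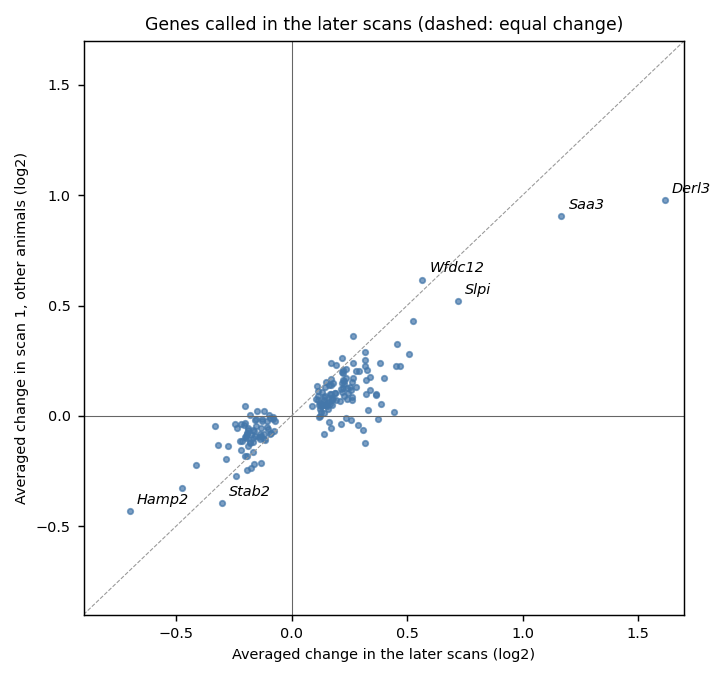
Averaged log2 change in scan 1 (vertical axis) against that in the later scans (horizontal axis) for the 175 genes called in the later scans, 1 point per gene; the dashed line marks equal change. Derl3 lies at 1.62 in the later scans and 0.98 in scan 1.

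Strains differed in how far they showed the averaged pattern. The 244 genes were called from these same animals, so the following values describe them and are no test. Each gene had its called direction in 17 to 28 of the 29 strains, with a median of 23. The median change in the called direction was 0.416 in OR5119, 0.334 in OR5035 and 0.226 in OR3393, and 0.0368 in IL16211, the lowest. OR5119 held the most extreme strain difference for 81 of the 244 genes and OR5035 for 25. One vehicle array of OR5119 and 2 arrays each of IL16211 and AU8046 were off their strain. Without the arrays off their strain the medians were 0.452 in OR5119 and 0.0335 in IL16211. In AU8046 the median went from 0.119 to -0.00477, the lowest without those arrays, and the genes in the called direction from 183 to 121.

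A test of equal changes in all 29 strains called 2 genes, Bace2 (adjusted p = 2.22e-05, limma moderated F test) and Mx2 (adjusted p = 8.35e-04), or 0.0147% of genes, and 749 had an unadjusted p under 0.05. Bace2 encodes an aspartic protease and Mx2 an interferon-induced GTPase. Both lie on chromosome 16, separated in the RefSeq gene order by Mx1 and Fam3b. In OR3393 the vehicle animals measured 4.13, 3.78, 3.51 and 5.99 for Bace2, and the tolvaptan animals 6.46, 6.64, 7.44 and 6.09. For Mx2 the vehicle animals measured 3.17, 3.33, 2.79 and 6.05, and the tolvaptan animals 6.28, 6.74, 7.21 and 5.98. The same vehicle animal, from scan 1, was high for both genes. Its correlation with the other arrays of its strain was 0.952, so that it was not off its strain. The strain difference was 2.31 for Bace2 and 2.72 for Mx2. Mx1 ranged from 2.41 to 3.19 over the 8 animals of OR3393. Without OR3393 no gene was called by this test.

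Derl3 itself was not called for strain dependence (adjusted p = 0.96, limma moderated F test), although its strain differences ran from -0.22 in OR773 to 3.39 in OR5119. Differences of Saa3 ran from -0.75 in OR3415 to 3.15 in OR5119, those of Stab2 from -1.24 in OR5119 to 0.14 in AU8052, those of Agt from -0.24 in IL16012 to 1.01 in OR5119 and those of Hamp2 from -2.65 in IL16012 to 0.20 in AU8005. Without the arrays off their strain the differences in OR5119 were 3.35 for Derl3, 3.33 for Saa3, -1.26 for Stab2 and 1.07 for Agt, and that of Hamp2 went from -2.21 to -1.65. The highest Stab2 difference was then 0.31 in AU8046, which stood at 0.06 with all arrays. That of Hamp2 was then 0.078 in AU8018, and AU8005 went from 0.20 to -0.20.

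The averaged effect was then compared with that in the other 16 strains. The difference was called for 6 genes (0.0442% of genes). Derl3 changed by 1.46 ± 0.14 (SE) in the 29 strains and by 0.16 ± 0.22 in the other 16, a difference of 1.30 ± 0.28 (adjusted p = 0.0285, limma). Stab2 changed by -0.33 ± 0.04 and 0.08 ± 0.06 (difference -0.41, adjusted p = 0.00181), Agt by 0.26 ± 0.04 and 0.00 ± 0.05 (difference 0.26) and Cyp2c29 by 0.30 ± 0.07 and -0.16 ± 0.08 (difference 0.46). Allc and Tmem114, both with medians below the typical array median, were not called in the 29 strains and differed by -0.23 and -0.20. No gene was called in the other 16 strains alone, where 731 had an unadjusted p under 0.05. For Saa3 the change in the 16 strains was 0.57 ± 0.20, and the difference of 0.53 ± 0.25 was not called. Strains on either side of the limit had Derl3 changes of 1.67 (IL16557, animals from 181) and 1.59 (IL16513, animals to 178).

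Scan and strain identity moved with this comparison. Of the 127 other arrays 93 lay in scan 2, which held none of the 227. Of the 64 vehicle and 63 tolvaptan arrays of the other strains, 22 and 4 were off their strain. Without such arrays the difference was 1.63 for Derl3, -0.44 for Stab2, 0.37 for Agt and 0.46 for Cyp2c29, all called among 15 genes, and Slpi was called as well (0.86 ± 0.18, SE, adjusted p = 0.0126, limma). The calls of Allc (-0.21, adjusted p = 0.115) and Tmem114 (-0.19, adjusted p = 0.122) were lost (limma). Within scan 1, which all 45 strains share, the differences were 1.48 ± 0.50 for Derl3, -0.64 ± 0.15 for Stab2 and 0.43 ± 0.10 for Agt, and no gene was called (866 with an unadjusted p under 0.05). With strains as the unit of replication none was called either (929 with an unadjusted p under 0.05). Whether the difference comes from the strains or from the time of handling was not tested.

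**Figure D5:**
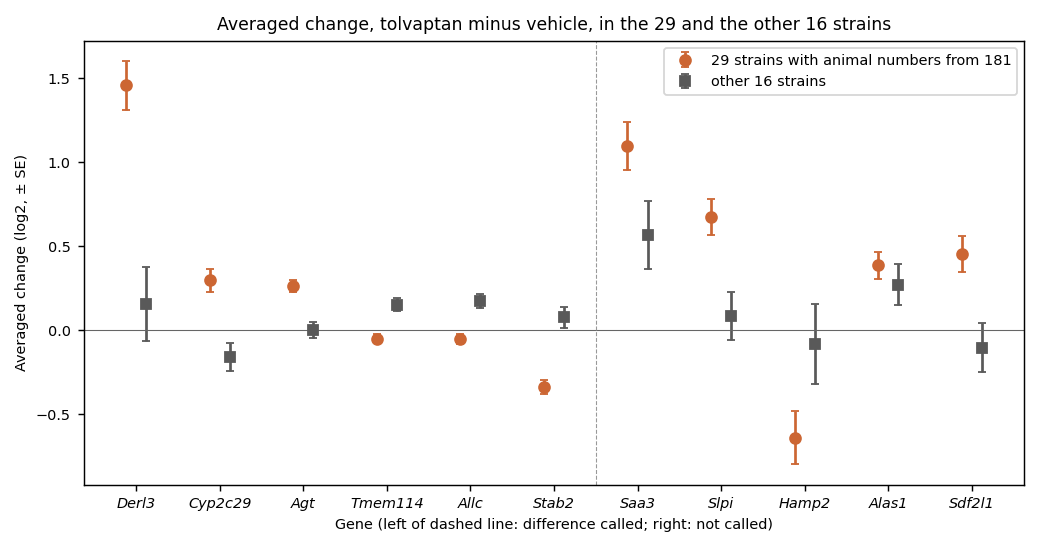
Averaged log2 change ± SE (vertical axis) in the 29 strains (circles) and in the other 16 strains (squares) for the 6 genes whose difference was called (left of the dashed line) and for 5 for which it was not (right). Derl3 lies at 1.46 in the 29 strains and at 0.16 in the other 16.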

How the data were processed

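Liver RNA was measured on 1-colour HT_MG-430 PM arrays. The values deposited by the authors are log2 signals; the submitters' processing notes name RMA and the Affymetrix Expression Console, without versions. There were 42597 probe sets, spanning 0.97 to 13.96, of which the annotation gave 27691 a single symbol. For each gene the brightest single-symbol probe set (mean of all 354 arrays) was taken, and 13585 of 16670 genes exceeded the array's median on at least 4 of the 227 arrays and were tested. Gene lists hold symbols matched through the RefSeq gene table of GRCm38.p6, used only for names and gene order.

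Means per strain and treatment, with scan as a further factor, were estimated by limma 3.58.1 (R 4.3.3). The averaged effect was tolvaptan minus vehicle, averaged over the 29 strains with equal weight. Differences against the other 16 strains used all 354 arrays. All p-values are two-sided and were adjusted over all genes tested (Benjamini-Hochberg, 0.05). Arrays off their strain correlated under 0.5 over 500 strain-informative probe sets. Named genes were the 15 largest rises and falls with the same sign in scan 1 and later scans, up to 4 called members of each of 51 lists (1 where none was called), 8 genes of vasopressin signalling and drug handling, and the genes called by the other tests; Alb, Hspa5, Hsp90b1, Calr, Creld2, Hamp, Derl1, Derl2, Saa1, Saa2, S100a8, Stab1, Lyve1, Pecam1, Mx1 and members of called lists were added after their values were seen. Members and lists were chosen with earlier results of these data known. Alternatives covered normalization, filter, scan, plate column, array weights and the unit of replication. Steps were tested on simulated arrays. Arrays have no read depth, and their number limits the precision.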

Additional observations from a re-analysis of the deposited data

Results flagged for a closer look

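The averaged change of 6 genes differed between the 29 strains and the other 16. The difference, 29 strains minus 16, was 1.30 for Derl3, -0.41 for Stab2, 0.46 for Cyp2c29, 0.26 for Agt, -0.23 for Allc and -0.20 for Tmem114 (limma contrast, adjusted p from 0.00181 to 0.0441). Bace2 and Mx2 differed between strains, with their largest differences, 2.31 and 2.72, in OR3393. In the vehicle group of OR3393, 1 animal stood apart for Mx2 at 6.05, while the other 3 lay between 2.79 and 3.33. Its gap to the nearest other animal was 0.836 of the range of the group, above Dixon's critical value for 4 samples. Of the 23 groups of 4 animals given value by value, all others stayed under that value, the nearest being Hamp2 (0.809) in the tolvaptan group of IL16012 and Derl3 (0.782) in that of OR5119. Chance gives about 1 in 20, and 1 of these 23 groups was above the value, so the count is no more than chance gives. The groups were also chosen with their values known, so the gap is a description and no test.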

How the results depend on the processing

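The count of 244 genes became 0 in scan 1 alone, 683 with array weights (whose estimation gave a convergence warning) and 5 at a fold of at least 1.5, and it ran from 152 (without OR5035) to 270 (without AU8016) when 1 strain was left out. Under the alternatives with 1 probe set a gene, all 244 genes kept their sign wherever they were tested, except 2 in scan 1 alone. With every probe set tested, the first listed probe set had the same sign for 240 of the 244. The other alternatives gave 173 (strains as the unit) to 308 (quantile normalization, 156 higher and 152 lower). Of 73 named genes called, 54 stayed called with strains as the unit, 55 with the plate column as a term and 47 in the later scans alone. Calls lost with strains as the unit were those of Arnt, Cct3, Cpne8, Crip2, Cyp2f2, Dnajc3, Dnase1l3, F10, Gnmt and Insig1. Kars, Mreg, Msmo1, Pcx, Psmd13, Sec61b, Serpinf1, Slc17a1 and Sqle lost theirs there too. The strain dependence count of 2 became 1 with all 354 arrays (Slc7a6, with neither Bace2 nor Mx2 called), 4 without the arrays off their strain, 4 in the 24 strains with no such array (an alternative chosen after seeing the data), and 0 to 4 when 1 strain was left out (0 without OR3393, 4 without AU8046). The 6 genes that differed between 29 and 16 strains became 2 without a scan term, 15 without the arrays off their strain (4 of the 6 among them), 2 with quantile normalization, 3 without a filter, 0 with strains as the unit and 0 in scan 1 alone. Among genes not called, signs turned in scan 1 alone for Gadd45b (-0.17), Lcn2 (-0.37), Abcb1a (-0.030), Slc10a1 (-0.068) and Mx2 (-0.11), for Mx2 without OR3393 (range -0.0078 to 0.11 over omissions of 1 strain), and for Avpr1a without AU8049 (0.0069), IL16680 (0.0022) or OR5391 (range -0.051 to 0.019). The cause was not tested. No paired analysis was possible because every animal has its own number and strain is already the block.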
